A study of Mus musculus with 6 samples.

Results

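The peroxisome genes described here are 29 listed genes, of 26898 in the deposited table, that encode peroxins (the proteins that build peroxisomes) and the enzymes and carriers of peroxisomal lipid metabolism. They were taken from the table by gene symbol, from a list drawn up with earlier results of these data known, and all 29 were found. Expression was measured by RNA sequencing in primary mouse embryonic fibroblasts (MEFs) of the C57BL/6 strain at passage 3, in 3 WT and 3 KO samples. WT cells were Kansl1fl/fl, meaning that both Kansl1 alleles carried recombination sites. KO cells were Kansl1fl/fl/CAG-cre, which adds a Cre recombinase expressed broadly from the CAG promoter and activated by tamoxifen. All 6 samples received 1 μM tamoxifen for 48 h, so the groups differ in Cre as well as in Kansl1, and these 2 differences cannot be told apart. KANSL1 is a subunit of the NSL chromatin complex, and the comparison asks which peroxisome genes differ between these KO and WT cells.

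Peroxisomes are organelles with a single membrane that shorten very long chain and branched fatty acids, degrade hydrogen peroxide and start the synthesis of ether lipids. Their membrane proteins are inserted by PEX3, PEX16 and PEX19. Their enzymes are made in the cytosol and carried in by the receptors PEX5 and PEX7 through the docking proteins PEX13 and PEX14. The receptors are then ubiquitinated by RING proteins such as PEX2 and PEX10 and pulled out with the help of the ATPase PEX6, which PEX26 anchors. Inherited loss of peroxins causes Zellweger spectrum disorders, and fibroblasts are the cells in which these defects are commonly diagnosed.

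The reads recovered for genes amounted to between 17655495 and 27718259 per sample, with KO 3 the lowest. Kansl1 RNA was 24.4 to 28.5 TPM (a unit of transcript abundance corrected for gene length and library size) in WT and 13.7 to 15.8 TPM in KO, so that KO cells kept 55.1% of the WT level. Esr1, part of which is fused to tamoxifen-activated Cre, was 0.154 to 0.192 TPM in WT and 20.8 to 23.3 TPM in KO samples, which matches the labels. All 10 fibroblast markers examined were detected, and their summed level overlapped between WT (10331 to 14916 TPM) and KO (11071 to 14530 TPM). Among 7 macrophage markers, 6 were tested and all 6 were higher in every KO than in every WT sample. Their summed level was 30.9 to 35.9 TPM in WT and 70.8 to 145 TPM in KO, with KO 10 the highest and Lyz2, a lysozyme gene, called higher. The defining marker Ptprc, too low to test, was 0.0872 to 0.0921 TPM in WT and 0.0902 to 0.257 TPM in KO, again with KO 10 the highest. The summed level of 6 epithelial markers did not overlap either, at 40.4 to 45.8 TPM in WT and 49.4 to 66.5 TPM in KO. Its tested members Krt8 and Krt18 had log2 fold changes of 0.61 (adjusted p = 0.0446) and 0.36 (adjusted p = 0.0741), and the defining markers Epcam and Cdh1 were at or below 0.612 TPM. The part of such cells in the results on peroxisome genes was not tested, and in bulk RNA fewer cells of a type and less RNA per cell cannot be told apart.

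Several peroxisome genes were called lower in KO MEFs and none was called higher. Of the 29 genes, 27 reached a mean of 1 TPM in WT or KO and could be tested, whereas Abcd2 and Hacl1 were not. The groups were compared with limma, a linear model with a moderated variance, and p-values were adjusted by Benjamini-Hochberg over all genes tested. A gene was called when its adjusted p-value was under 0.005 and its log2 fold change, taken on TPM + 1, lay beyond 0.5 or -0.5. At these thresholds 5 genes fell (Pex26, Pex3, Pex11a, Hsd17b4 and Decr2), or 18.5% of those tested, beside 9.03% of all 14799 genes tested. No peroxisome gene was called higher, beside 1.64% of all genes. At unadjusted p-values under 0.05 with any fold change, 0 peroxisome genes were higher, beside 1810 of all 14799 genes tested. With voom on recovered reads 0 passed both thresholds, although Pex5 and Acox3 had positive log2 fold changes inside the limit, 0.28 (adjusted p = 0.00729) and 0.22 (adjusted p = 0.0406). With an adjusted p-value under 0.05 and the same limit on fold change, Pex16, Scp2, Phyh and Mlycd were lower too, giving 9 genes or 33.3% of those tested beside 16.6% of all genes. The 12 peroxins gave 3 of the 5 genes that fell (25% of those tested, median log2 fold change -0.45), and the 15 tested enzymes and carriers gave 2 (13.3%, median -0.15). With the looser cut-off of 0.05 they gave 4 and 5 genes, or 33.3% each, so the called shares differed only under the stricter one. Pex11a, counted in the 18.5% and the 25%, had a KO mean of 0.975 TPM and was tested only through WT, where it is high. Shares that include it are descriptions and support nothing about the list. The median log2 fold change of the 27 genes was -0.25, beside -0.07 over all genes tested. Leaving out WT 5 brought the 5 lower genes to 3, and testing all 26898 genes of the table left 1, Hsd17b4.

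The direction was seen sample by sample. In 13 of the 27 tested genes (48.1%) every KO sample lay below every WT sample, beside 29.9% of all genes tested. Pex5 alone had every KO sample above every WT sample, which held for 13.3% of all genes. The 5 genes that fell had WT means from 3.51 to 51.4 TPM, with a median of 7.80 TPM, and the 22 that were tested and not called had a median of 19.5 TPM. KO 3 had the lowest value of the KO samples in 22 of the 27 genes, and KO 7 the highest in 21. The same order held for most genes, with KO 3 the lowest KO sample in 76.2% and KO 7 the highest in 68.6% of all genes tested. The share of TPM taken by 1 RNA, Gm23935, was 25.6% in KO 3, 15.5% in KO 7 and 19.9% in KO 10, and 15.5%, 18.3% and 24.3% in WT 4, 5 and 8, and its part in this order was not tested.

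The genes of membrane assembly were considered first. Pex3 (ENSMUSG00000019809.16, chromosome 10 from 13523842 to 13553142 on mm10, minus strand) encodes the membrane anchor on which new peroxisomal membrane proteins dock. Its level was 8.49, 7.94 and 6.99 TPM for WT 4, 5 and 8, against 3.02, 3.40 and 2.95 TPM for KO 3, 7 and 10. The groups were far apart, and the KO samples kept 40.0% of the WT mean. Pex3 fell (log2 fold change -1.09, SE 0.13, adjusted p = 0.000563).

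Pex16 and Pex19 act at the same step, PEX19 as the cytosolic chaperone of membrane proteins and PEX16 as a receptor in the membrane. Pex16 was 8.97, 8.42 and 9.39 TPM for WT 4, 5 and 8, against 3.72, 5.06 and 5.87 TPM for KO 3, 7 and 10. Its groups did not overlap, but its log2 fold change of -0.77 (SE 0.15) missed the stricter threshold with an adjusted p of 0.0057. Pex19, the most abundant of the 3 at 47.4 ± 2.55 TPM (SD, n = 3) in WT and 34.0 ± 2.13 TPM (SD, n = 3) in KO, also did not overlap. Its log2 fold change of -0.47 (95% interval -0.69 to -0.25) lay inside the limit on fold change, with an adjusted p of 0.00751. All 3 genes of membrane protein insertion therefore had lower values in every KO than in every WT sample, as did 29.9% of all genes tested.

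Pex11a encodes a membrane protein that elongates peroxisomes before they divide. It was 3.26, 3.40 and 3.88 TPM for WT 4, 5 and 8, against 0.605, 1.26 and 1.06 TPM for KO 3, 7 and 10. The KO mean was 27.8% of the WT mean, the smallest remainder among the tested genes of the list, and it rested on 14 to 117 recovered reads per sample. Pex11a fell (log2 fold change -1.20, SE 0.19, adjusted p = 0.00162). Its KO mean of 0.975 TPM was under the filter of 1 TPM, so it was tested only through WT, where it is high, and it counts among the 5 genes that fell on that basis. The call was lost without WT 5 or without WT 8, and its adjusted p-value ranged from 0.000707 to 0.0106 over the alternatives.

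The step that recycles import receptors was represented by Pex6 and Pex26. Pex26 (ENSMUSG00000067825.11, chromosome 6 from 121183667 to 121198837 on mm10, plus strand) was 6.64, 5.53 and 5.55 TPM for WT 4, 5 and 8, against 1.67, 2.22 and 1.74 TPM for KO 3, 7 and 10. Every KO sample lay under every WT sample by more than the spread within either group. With a log2 fold change of -1.26 (SE 0.15) and an adjusted p of 0.00052, it had the largest fall of the 27 tested genes on this scale. Pex6, the ATPase that PEX26 holds at the membrane, was 16.3 ± 0.988 TPM (SD, n = 3) in WT and 13.96 ± 1.45 TPM (SD, n = 3) in KO, and the groups overlapped. Its log2 fold change of -0.21 had a 95% interval of -0.47 to 0.05.

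None of the import receptor, docking and RING genes passed the thresholds. Pex5, the receptor for enzymes with the common C-terminal signal, was 59.3, 58.7 and 54.2 TPM for WT 4, 5 and 8, against 64.6, 65.9 and 67.3 TPM for KO 3, 7 and 10. All KO samples were above all WT samples, yet the log2 fold change was 0.20 (95% interval -0.01 to 0.40, adjusted p = 0.138), with values of 0.30 under median-of-ratios scaling (adjusted p = 0.0105) and 0.28 under voom (adjusted p = 0.00729). Pex7, the receptor for the rarer N-terminal signal, was 2.74 ± 0.252 TPM (SD, n = 3) in WT and 1.78 ± 0.176 TPM (SD, n = 3) in KO. Its log2 fold change of -0.43 did not pass (adjusted p = 0.0696), although voom on recovered reads called it lower at -0.54. The docking gene Pex13 overlapped between groups, with a log2 fold change of -0.05 (95% interval -0.31 to 0.21) and a sign that turned with median-of-ratios scaling. Pex14, the other docking gene, had a log2 fold change of -0.48 (adjusted p = 0.047), and 28.3% of its exon length overlaps the opposite-strand gene Gm17029, which was at 0.235 TPM in WT and 0.281 TPM in KO. The RING genes had log2 fold changes of -0.30 for Pex2 (adjusted p = 0.107) and 0.10 for Pex10 (adjusted p = 0.628).

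**Figure D1:**
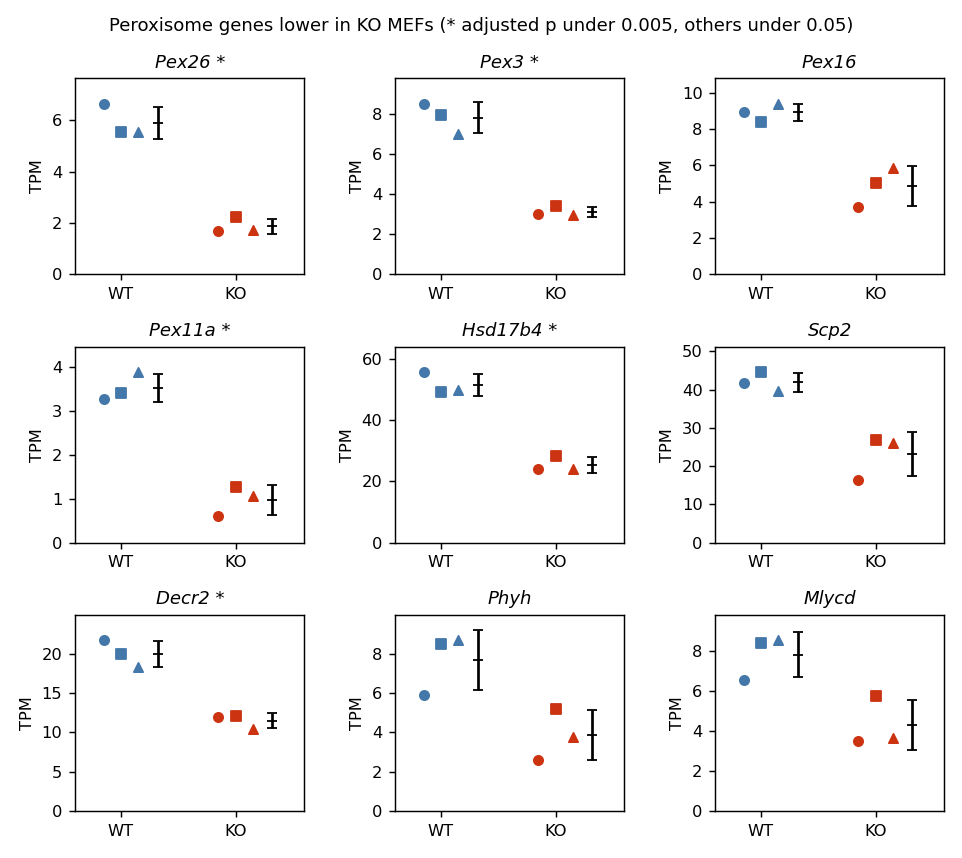
TPM of the 9 peroxisome genes with a log2 fold change below -0.5 and an adjusted p-value under 0.05, 1 point per sample (circles WT 4 and KO 3, squares WT 5 and KO 7, triangles WT 8 and KO 10) with the group mean ± SD (n = 3). An asterisk marks the 5 genes with an adjusted p-value under 0.005, and in all 9 panels the KO points lie below the WT points.

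The promoters of Pex26, Pex11a, Pex3 and Decr2, 4 of the 5 genes that fell, are shown to set genes with the same call side by side, and Hsd17b4 is not shown; each runs from 250 bases before to 50 bases after the RefSeq start on GRCm38.p6 (the build also called mm10), 5′ to 3′ on the strand of the gene. Capitals mark exact matches on either strand to 1 of 4 motifs: the CCAAT box (CCAAT), the GC box (GGGCGG), an ETS core (CCGGAAG) and the TATA box (TATAAA). The positions are chr6:121183417-121183716 for Pex26 (plus strand), chr7:79743082-79743381 for Pex11a (minus strand), chr10:13553093-13553392 for Pex3 (minus strand) and chr17:26090115-26090414 for Decr2 (minus strand).
Pex26: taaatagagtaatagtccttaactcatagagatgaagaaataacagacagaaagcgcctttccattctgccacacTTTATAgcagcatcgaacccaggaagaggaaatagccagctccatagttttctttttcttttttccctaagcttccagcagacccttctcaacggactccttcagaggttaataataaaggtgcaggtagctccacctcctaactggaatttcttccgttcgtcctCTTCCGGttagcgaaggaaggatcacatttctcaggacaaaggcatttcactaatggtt
Pex11a: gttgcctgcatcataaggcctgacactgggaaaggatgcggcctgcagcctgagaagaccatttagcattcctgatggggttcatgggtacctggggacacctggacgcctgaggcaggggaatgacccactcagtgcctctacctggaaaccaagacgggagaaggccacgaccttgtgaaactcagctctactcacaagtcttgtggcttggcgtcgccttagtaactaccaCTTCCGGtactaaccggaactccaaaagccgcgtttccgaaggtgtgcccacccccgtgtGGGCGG
Pex3: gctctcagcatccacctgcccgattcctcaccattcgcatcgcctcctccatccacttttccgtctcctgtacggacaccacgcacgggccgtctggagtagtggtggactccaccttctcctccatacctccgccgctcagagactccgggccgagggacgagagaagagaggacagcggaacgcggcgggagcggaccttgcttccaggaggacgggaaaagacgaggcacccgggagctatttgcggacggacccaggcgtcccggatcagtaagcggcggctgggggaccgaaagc
Decr2: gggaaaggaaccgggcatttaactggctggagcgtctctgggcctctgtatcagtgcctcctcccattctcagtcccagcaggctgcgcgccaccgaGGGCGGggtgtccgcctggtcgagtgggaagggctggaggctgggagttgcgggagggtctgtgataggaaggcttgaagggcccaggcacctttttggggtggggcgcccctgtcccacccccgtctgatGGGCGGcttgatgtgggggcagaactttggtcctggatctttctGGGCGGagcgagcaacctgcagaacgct
No motif was common to the 4 sequences. Pex26 and Pex11a held an ETS core, which 8.86% of all 32851 promoters of this length also held, and Pex11a and Decr2 held a GC box, held by 35.7% of all promoters. The Pex26 sequence held a TATA box, as did 13.6% of all promoters, and the Pex3 sequence held none of these motifs. The RefSeq promoter table used here held 27 promoters for 23 of the peroxisome genes. Of these 27, the GC box was found in 19, the ETS core in 6, the TATA box in 3 and the CCAAT box in 10. The CCAAT box was held by 37.4% of all promoters and was absent from Pex26, Pex11a, Pex3 and Decr2. The median share of G and C bases was 59.3% in the 27 promoters and 52.7% in all promoters, and its part in the GC box matches was not tested. A match of letters is a description of the window and not a bound site.

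Carriers of the peroxisomal membrane did not pass the thresholds. Abcd3 encodes a transporter of long and branched acyl chains and was 22.8 ± 3.65 TPM (SD, n = 3) in WT and 21.7 ± 1.59 TPM (SD, n = 3) in KO. Its log2 fold change of -0.05 had a 95% interval of -0.35 to 0.24, and its sign turned with median-of-ratios scaling. Slc25a17, a carrier of nucleotide cofactors such as coenzyme A, had a log2 fold change of -0.25 (95% interval -0.53 to 0.02). Abcd4, whose product acts in lysosomal cobalamin transport although it belongs to the same transporter family, had a log2 fold change of 0.23 (95% interval -0.11 to 0.56). Abcd2 was at 0.122 to 0.337 TPM, or 6 to 19 recovered reads, in the 6 samples and was not tested.

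Of the 7 listed genes of β-oxidation, Hsd17b4 and Decr2 fell, Scp2 came close to the threshold and 4 overlapped between the groups. The genes that fell were 28.6% of the 7, beside 9.03% of all genes, and the 3 with every KO sample below every WT sample were 42.9%, beside 29.9% of all genes. Hsd17b4 encodes the D-bifunctional protein, which carries out the hydratase and dehydrogenase steps. It was 55.6, 49.0 and 49.6 TPM for WT 4, 5 and 8, against 23.9, 28.2 and 23.9 TPM for KO 3, 7 and 10. The KO mean was 49.3% of the WT mean, and the log2 fold change of -0.995 (SE 0.11) had an adjusted p of 0.000379. Hsd17b4 was called lower in every alternative run, including the fit of all 26898 genes, where its adjusted p-value was 0.00375.

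Scp2 encodes the thiolase of branched chains together with sterol carrier protein. It was 41.8, 44.5 and 39.5 TPM for WT 4, 5 and 8, against 16.4, 26.7 and 26.1 TPM for KO 3, 7 and 10, with KO 3 well under the other KO samples. Its log2 fold change of -0.86 (SE 0.17) missed the stricter threshold with an adjusted p of 0.00536, and passed it without KO 3, with median-of-ratios scaling and with voom. Decr2, the reductase for unsaturated chains, was 21.7, 19.9 and 18.3 TPM for WT 4, 5 and 8, against 11.9, 12.1 and 10.5 TPM for KO 3, 7 and 10. These groups did not overlap, and Decr2 fell (log2 fold change -0.75, SE 0.11, adjusted p = 0.00161). The call was lost without WT 5, without KO 3 or without KO 10, with a range of adjusted p-values from 0.00053 to 0.00904 over the alternatives.

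The other 4 genes of β-oxidation overlapped between groups. Acaa1a, the straight-chain thiolase, was 23.8 ± 0.404 TPM (SD, n = 3) in WT and 23.2 ± 1.78 TPM (SD, n = 3) in KO, with a 95% interval of the log2 fold change from -0.27 to 0.19. Reads of Acaa1a may be shared with its near copy Acaa1b, and 6.57% of its exon length overlaps the opposite-strand gene Myd88. Amacr, the racemase of branched acyl chains, had an interval from -0.21 to 0.29, Ech1, an isomerase of unsaturated chains, one from -0.34 to 0.16, and Acox3, an oxidase of branched chains, one from -0.19 to 0.41. Changes of 0.5 or more on the log2 scale lay outside each of these 4 intervals. Signs turned with median-of-ratios scaling for Acaa1a and Ech1, and without KO 10 for Amacr.

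Phyh, the first enzyme of phytanic acid α-oxidation, was 5.93, 8.49 and 8.69 TPM for WT 4, 5 and 8, against 2.61, 5.18 and 3.79 TPM for KO 3, 7 and 10. The groups were separate but each was widely spread, and the log2 fold change of -0.86 (SE 0.21) had an adjusted p of 0.0151. Hacl1, which encodes the lyase later in the same path, was at 0 to 0.0461 TPM, or 0 to 2 recovered reads. Of its exon length, 31.1% is shared with the same-strand gene Gm49387, so the level of Hacl1 is uncertain and was not tested. Mlycd encodes malonyl-CoA decarboxylase, which is found in peroxisomes and in other compartments. It was 6.53, 8.41 and 8.53 TPM for WT 4, 5 and 8, against 3.47, 5.74 and 3.66 TPM for KO 3, 7 and 10 (log2 fold change -0.75, SE 0.18, adjusted p = 0.0138). Mlycd passed the stricter threshold only without KO 7 (adjusted p = 0.00473).

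The 3 genes of peroxisomal ether lipid synthesis were among the most abundant of the list and did not pass. Gnpat, which adds the first acyl chain, was 41.8 ± 4.17 TPM (SD, n = 3) in WT and 35.5 ± 4.15 TPM (SD, n = 3) in KO, and the 95% interval of its log2 fold change (-0.23) ran from -0.50 to 0.04. Agps, which forms the ether bond, and Far1, which makes the fatty alcohol, had log2 fold changes of -0.15 each, with intervals of -0.45 to 0.14 and -0.43 to 0.13. In all 3 genes WT 4 was the highest sample, and the groups overlapped.

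A further 7 tested genes of the ether lipid path were listed as steps outside the peroxisome, and where each product lies was not examined. Of these genes, 2 fell (28.6%, beside the 9.03% over all genes). The count was 1 without WT 4, WT 5, KO 3, KO 7 or KO 10 and with no variance trend, and 0 with no filter on low values. Dhrs7b, whose product reduces the ketone made by AGPS, was 14.4 ± 0.727 TPM (SD, n = 3) in WT and 6.25 ± 1.33 TPM (SD, n = 3) in KO (log2 fold change -1.10, adjusted p = 0.000762). Chpt1, a cholinephosphotransferase, was 5.57 ± 1.75 TPM (SD, n = 3) in WT and 2.00 ± 0.416 TPM (SD, n = 3) in KO (log2 fold change -1.11, adjusted p = 0.00417). The median log2 fold change of the 7 genes was -0.05.

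Further genes of the peroxisome were compared as lists. Of 10 tested peroxins and division factors outside the 29 genes, 1 was called lower (10%, near the 9.03% over all genes). This was Pxmp4, a small peroxisomal membrane protein, at 6.41 ± 0.233 TPM (SD, n = 3) in WT and 1.38 ± 0.241 TPM (SD, n = 3) in KO (log2 fold change -1.64, adjusted p = 0.000204).

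Of 23 tested matrix enzymes and carriers outside the 29 genes, 7 fell (30.4%, beside 9.03% of all genes) and 0 rose (beside 1.64%) at the thresholds. With an unadjusted p-value under 0.05, 12 had lower and 3 had higher values, beside 4028 and 1810 of all 14799 genes tested. Of the 7, Ehhadh, Nudt12, Gstk1 and Nudt7 had KO means under 1 TPM and were tested only through WT, where they are high. Shares and counts that include them are descriptions and support nothing about the list. The number that fell was 2 without WT 5, 3 without KO 3 or KO 7, 4 without WT 4 or KO 10, and 2 with no filter on low values. Nudt19, Nudt12 and Nudt7, among them, encode Nudix hydrolases, which cleave coenzyme A and related nucleotides, and were not tested as a group. Nudt19 was 17.6, 16.7 and 14.95 TPM for WT 4, 5 and 8, against 4.87, 6.16 and 5.56 TPM for KO 3, 7 and 10 (log2 fold change -1.42, adjusted p = 0.000195). Nudt12 and Nudt7 fell with log2 fold changes of -1.27 and -0.91 from WT means of 2.54 and 2.52 TPM to KO means of 0.453 and 0.869 TPM. Ehhadh, the L-bifunctional enzyme and thus a counterpart of Hsd17b4, was 2.16 to 3.02 TPM in WT and 0.0461 to 0.208 TPM in KO, where it rested on few reads (1 to 73 over the 6 samples). Its log2 fold change was -1.61, with an adjusted p of 0.00064. Gstk1, a glutathione transferase, Pecr, an enoyl-CoA reductase, and Tysnd1, the protease that trims imported enzymes, fell with log2 fold changes of -1.24, -0.86 and -0.67.

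Some enzymes of the same list had higher means in KO samples without passing. Cat (catalase) was 65.8 ± 6.76 TPM (SD, n = 3) in WT and 80.3 ± 7.13 TPM (SD, n = 3) in KO (log2 fold change 0.28, adjusted p = 0.0882). Prdx5 was 124 and 138 TPM on average (log2 fold change 0.16). Idh1 was 87.5 ± 5.56 TPM (SD, n = 3) in WT and 122 ± 2.81 TPM (SD, n = 3) in KO, and its log2 fold change of 0.47 narrowly missed both thresholds (adjusted p = 0.00508).

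Fatty acid oxidation in mitochondria was examined for comparison, with 18 tested genes. Of these, 2 fell (11.1%, near the 9.03% over all genes) and 1 rose, beside 1.64% of all genes. The number that fell was 1 without WT 5, KO 3 or KO 10, or with no filter on low values. It was 3 with median-of-ratios scaling or voom, and 4 (22.2%, beside 16.6% of all genes) at an adjusted p-value under 0.05. Every KO sample lay below every WT sample in 9 genes (50%, beside 29.9% of all genes), and above in 3, beside 13.3% of all genes. The median log2 fold change was -0.31. Decr1, the mitochondrial counterpart of Decr2, was 17.95 ± 1.59 TPM (SD, n = 3) in WT and 6.96 ± 0.412 TPM (SD, n = 3) in KO (log2 fold change -1.25, adjusted p = 0.000222). Slc25a20, the carnitine carrier, fell with a log2 fold change of -0.86, and Cpt1c, a relative of the carnitine palmitoyltransferases, rose with one of 0.66 (adjusted p = 0.00146). The call of Cpt1c was lost without WT 5, WT 8, KO 7 or KO 10, and with no filter on low values. Whether peroxisomal and mitochondrial genes differed in their response was not tested. The PPAR and RXR receptors and coactivators, which switch on peroxisomal genes in liver, had no called gene among 5 tested. Of these 5, 1 was higher and 0 lower at an unadjusted p-value under 0.05, beside 1810 and 4028 of all 14799 genes tested. Ppara itself was at 0.178 to 0.412 TPM in WT and 0 to 0.0876 TPM in KO, too low to test, and Rxra was 21.5 ± 1.30 TPM (SD, n = 3) in WT and 22.6 ± 1.81 TPM (SD, n = 3) in KO.

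Some peroxisome genes begin next to a gene on the opposite strand, a feature looked for after their changes had been seen. Within 1000 bp, 6 of the 29 genes had a protein-coding neighbour of this kind in the table, and 4 of these neighbours were tested. Such a tested neighbour was found for 14.1% of 11888 protein-coding genes tested. The 4 include Btd, beside the untested Hacl1, so the count and this share do not have the same base. Adat2, a subunit of a tRNA deaminase, starts inside Pex3. It was 18.4, 17.3 and 13.7 TPM for WT 4, 5 and 8, against 4.31, 5.84 and 7.03 TPM for KO 3, 7 and 10, and it fell with a log2 fold change of -1.39 (adjusted p = 0.00064). Both genes of this pair were thus called lower, and their exons overlap over 249 bp, or 5.25% of the exon length of Pex3. The exon length of Adat2 is only 1466 bp, so the overlap is a larger share of Adat2. The library kit named in the methods does not keep the strand, so reads in that overlap cannot be assigned to either gene.

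The pair of Pex13 and Pus10 was different. Pus10, a pseudouridine synthase gene that starts inside Pex13, was 26.7, 21.5 and 17.6 TPM for WT 4, 5 and 8, against 10.2, 12.5 and 10.3 TPM for KO 3, 7 and 10, a log2 fold change of -0.92 (adjusted p = 0.00255), while the Pex13 groups overlapped. The exons of this pair share only 2 bp. Btd beside Hacl1 and 2810004N23Rik beside Gnpat had log2 fold changes of -0.43 (adjusted p = 0.0256) and -0.14 (adjusted p = 0.463).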

How the data were processed

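RNA was sequenced from primary MEFs, with 3 samples in each of 2 groups. The authors aligned reads to mm10 with STAR; the submitters' processing notes also name Bowtie 0.12.2, and the counting program is not given in the sources used here. The authors deposited TPM per gene and sample, each column scaled to a common total. They also deposited a log2 fold change and an adjusted p-value of their own comparison, neither of which was used. TPM multiplied by GENCODE M21 exon length gave whole reads for 100% of the values checked at a tolerance of 0.05; all 26898 identifiers matched. These reads gave the depth and entered voom with TMM scaling.

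Values of log2(TPM + 1) entered limma 3.58.1 (R 4.3.3), whose variance prior followed expression, for genes with a group mean of at least 1 TPM. Fold changes on this scale understate the change of low genes. The thresholds follow the study. The code was tested on simulated data. The members, lists and filter were chosen with earlier results of these data known. Named are all 29 genes and, of the related pathway lists, the called genes and those at or above 100 TPM, with some uncalled genes added after their values were seen. A few genes are not reported here. Marker lists are given mainly as sums. The samples are biological replicates according to the methods of the study, and the p-values measure the spread between them. Alternatives are given in the closing section.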

Additional observations from a re-analysis of the deposited data

How the results depend on the processing

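No paired analysis was possible because no replicate number occurs in both groups. Pex26, Pex3, Pex11a, Hsd17b4 and Decr2 were lower in KO in every alternative, and all 5 were called with a pseudocount of 0.1, median-of-ratios scaling, no variance trend and voom. The number of peroxisome genes called lower was 1 with no filter on low values, 9 at an adjusted p-value under 0.05 and 3 to 6 with 1 sample left out; none was called higher in any alternative. Over all genes, no filter gave 286 lower and 55 higher, an adjusted p-value under 0.05 gave 2453 and 694, median-of-ratios scaling gave 1445 and 470, voom gave 1871 and 589, and leaving out 1 sample gave 617 to 938 lower and 84 to 252 higher. Over the 5 related lists together, 12 genes were lower and 1 higher; no filter gave 4 and 0, median-of-ratios scaling 2 higher, voom 3 higher, and leaving out 1 sample 5 to 10 lower and 0 to 1 higher. Signs turned for Pex13 (0.044 with median-of-ratios scaling, 0.015 with voom), Abcd3 (0.045 and 0.030), Acaa1a (0.057 and 0.040) and Ech1 (0.0084 with median-of-ratios scaling). With 1 sample left out, log2 fold changes ran from -0.131 to 0.021 for Pex13, -0.163 to 0.058 for Abcd3, -0.098 to 0.0079 for Acaa1a and -0.029 to 0.081 for Amacr. Testing all genes adds low genes to the variance trend and to the number of tests. The cause of this shift and of the other shifts was not tested. Pex11a rested on 14 to 117 recovered reads per sample and Abcd2 on 6 to 19, which limits their precision.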
